A study of Homo sapiens with 12 samples.

Results

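The enzymes that make, use and rebuild arginine, proline and citrulline were followed in human gingival keratinocytes through 10 genes, namely ARG1, ARG2, ASS1, ASL, NOS3, GATM, OAT, ALDH18A1, PYCR1 and DDAH1. They were taken by gene symbol from a table of raw counts with 58735 genes, and 9 of the 10 were detected. The study asked how L-Arginine (Arg) acts on oral keratinocytes kept at high glucose, using RNA sequencing of TIGK cells, which are gingival epithelial cells made immortal with telomerase. All 4 groups were kept at 48 mM glucose in a base medium without Arg. Control cells received no Arg and were collected at 24 or 48 h, and Arg-treated cells received 500 μM Arg and were collected at the same times. Each group had 3 libraries, named replicates A, B and C, which makes 12 in all. All of them come from 1 immortalized line, and the sources used here do not say how far the replicates were kept separate, so the p-values measure only the spread between these libraries, which may be technical.

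Arginine stands at a branch point of metabolism. Arginases cut it to ornithine and urea, and ornithine aminotransferase turns ornithine into the intermediate from which proline is made. The same intermediate is made from glutamate by the ALDH18A1 enzyme, and PYCR1 reduces it to proline. Nitric oxide synthases convert arginine to nitric oxide and citrulline, and argininosuccinate synthase and lyase turn citrulline back into arginine. Glycine amidinotransferase, the product of GATM, takes arginine into the creatine pathway. DDAH1 breaks down methylated arginines that inhibit nitric oxide synthases, and releases citrulline. In keratinocytes, as in other cells, these routes supply precursors of polyamines, nitric oxide and proline for protein synthesis.

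The stretches just upstream of 4 of the genes are shown because ARG2 and OAT passed the test for Arg, and ASS1, ARG2 and ALDH18A1 passed the test for time in both conditions. They are the 250 bases before the start given by RefSeq (build GRCh38.p14), which held a promoter for 9 of the 10 genes but none for PYCR1. They lie at chr14:67619670-67619919 on the plus strand for ARG2, chr10:124418924-124419173 on the minus strand for OAT, chr9:130444711-130444960 on the plus strand for ASS1, and chr10:95656712-95656961 on the minus strand for ALDH18A1. The deposited gene models of ARG2, OAT and ASS1 start upstream of the RefSeq start used, so the last 122, 53 and 32 bases of those stretches lie inside them. Capitals mark the letters TGACGTCA, the cyclic AMP response element, and CACGTG, an E-box.
ARG2: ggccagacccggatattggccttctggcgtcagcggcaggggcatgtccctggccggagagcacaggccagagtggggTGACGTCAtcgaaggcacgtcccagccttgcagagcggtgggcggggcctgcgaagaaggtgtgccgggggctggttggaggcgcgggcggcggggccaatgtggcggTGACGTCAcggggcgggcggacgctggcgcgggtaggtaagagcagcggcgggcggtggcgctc
OAT: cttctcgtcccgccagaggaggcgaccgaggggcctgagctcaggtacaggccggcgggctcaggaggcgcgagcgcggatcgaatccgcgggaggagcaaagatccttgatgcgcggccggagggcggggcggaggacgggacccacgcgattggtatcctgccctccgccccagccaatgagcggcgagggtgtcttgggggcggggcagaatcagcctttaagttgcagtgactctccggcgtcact
ASS1: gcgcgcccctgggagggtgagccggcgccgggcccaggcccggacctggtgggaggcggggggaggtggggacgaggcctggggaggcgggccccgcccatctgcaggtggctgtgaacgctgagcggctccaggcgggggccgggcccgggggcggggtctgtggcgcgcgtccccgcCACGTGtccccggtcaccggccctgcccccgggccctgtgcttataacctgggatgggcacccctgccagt
ALDH18A1: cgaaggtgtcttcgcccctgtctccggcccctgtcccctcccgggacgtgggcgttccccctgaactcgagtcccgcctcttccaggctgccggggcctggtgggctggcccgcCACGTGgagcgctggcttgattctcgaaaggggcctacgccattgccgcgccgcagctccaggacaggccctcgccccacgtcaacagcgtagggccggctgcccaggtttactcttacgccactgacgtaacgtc

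The motifs were searched on both strands and do not overlap one another in these stretches, namely TGACGTCA, CACGTG and TGATGNAA, the amino acid response element. ARG2 held TGACGTCA at 2 places, from 172 to 165 and from 64 to 57 bases before the start. Of 34943 RefSeq promoters of the same length, 1.63% held TGACGTCA and 0.054% held it at least 2 times. ASS1 held CACGTG from 71 to 66 bases before the start and ALDH18A1 from 136 to 131, and 6.32% of all promoters held these letters. TGATGNAA was in 3.15% of all promoters, and these letters are not in the windows of the 9 genes. OAT held no match to the 3 motifs. A match is a description of the letters and not of binding.

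The libraries held between 16542243 and 19040964 counts. The 14 keratinocyte markers were all detected in TIGK cells, with a summed level between 44810 and 57093 CPM (counts scaled to a common library size). Of the 9 endothelial markers, which matter here because NOS3 is the endothelial nitric oxide synthase, only 2 averaged above 1 CPM, and the 9 summed to between 4.02 and 9.82 CPM. At 24 h the 8 fibroblast markers summed to between 34.5 and 54.4 CPM in the control and between 30.3 and 41.4 CPM with Arg. At 48 h they summed to between 72.8 and 102.8 CPM over both groups, and 3 of the 8 averaged above 1 CPM. Control replicate B at 48 h stood apart from the others of its group. Its counts differed from theirs by a chi-square per degree of freedom of 20.9 and 23.9, against 3.66 between them. At 24 h, control replicate B (12.3 and 12.5, against 6.54) and Arg replicate A (12.4 and 10.9, against 5.41) also stood apart, but less. In control replicate B at 48 h, 1.55% of the counts came from mitochondrially encoded genes. This share was 0.906% and 0.707% in control replicates A and C at 48 h, and between 1.14% and 1.31% in the Arg libraries at 48 h. The 48 h results of the 9 detected genes and the counts of the gene lists are therefore also given without control replicate B where a call differs.

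Per kilobase of exon, the 10 genes spanned a wide range of levels in TIGK cells. OAT had the highest mean, which over the 12 libraries was 58.6 ± 8.59 CPM per kb (SD). It was followed by ALDH18A1 at 39.4 ± 4.03, ASS1 at 39.1 ± 9.61 and PYCR1 at 30.9 ± 3.65 CPM per kb. The enzymes that lead to proline, together with argininosuccinate synthase, thus held the upper places. ASL at 6.82 ± 0.61, DDAH1 at 6.77 ± 1.04, ARG2 at 5.05 ± 2.54 and GATM at 4.15 ± 0.57 CPM per kb formed the next tier. NOS3 stood at 0.297 ± 0.101 CPM per kb, and ARG1 had 0 counts in all 12 libraries.
The order within each tier was not resolved, because the library values of ALDH18A1, ASS1 and PYCR1 overlapped from neighbour to neighbour, as did those of ASL, DDAH1, ARG2 and GATM. The lowest library of OAT, at 49.9 CPM per kb, was above the highest of ALDH18A1, at 44.8, but below the highest of ASS1, at 51.9, so OAT and ASS1 overlapped. PYCR1 averaged 4.53-fold above ASL, and its lowest library, at 23.6 CPM per kb, was above the highest library of ASL, at 7.75. GATM averaged 14.0-fold above NOS3, again without overlap. No test was run on this order, since the 2 sides of each pair come from the same libraries.

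**Figure D1:**
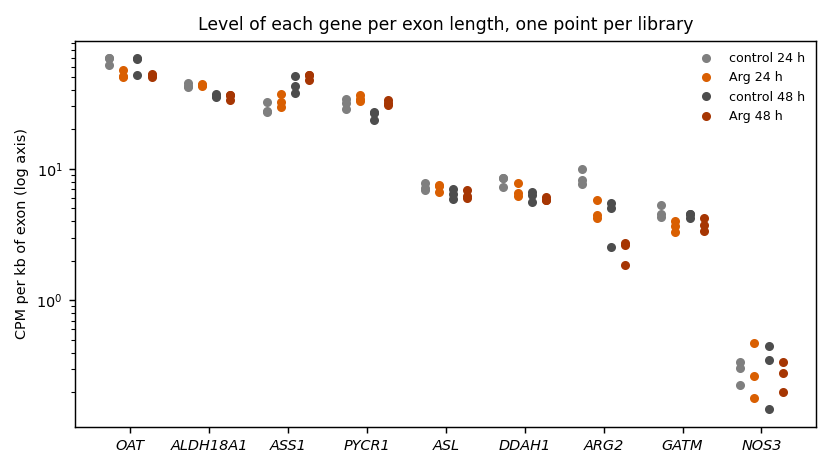
Level of each gene per kilobase of exon (CPM per kb, log axis) in every library, ordered by mean. ARG1, at 0, cannot be drawn on this axis. OAT has the highest mean, ALDH18A1, ASS1 and PYCR1 lie between 23.6 and 51.9 CPM per kb, with ASS1 at 48 h reaching the lower libraries of OAT, and NOS3 lies below 0.470.

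After 24 h of Arg treatment, 2 of the 9 testable genes fell and none rose, called by edgeR's quasi-likelihood test with an adjusted p under 0.05. ARG2, the mitochondrial arginase, fell by 44.3%, and OAT, the next enzyme on the path from ornithine to proline, fell by 21.8%. Of all 14279 genes tested, 6.63% were called in either direction and 3.84% were called lower. At an unadjusted p under 0.05, 4 of the 9 genes were lower, GATM and DDAH1 in addition to ARG2 and OAT, against 11.9% of all genes. The Arg and control libraries did not overlap for 3 of the 9 genes, all lower with Arg, against 26.2% of all genes in either direction and 13.4% in the lower direction. The median log2 fold change was −0.02 over the 9 genes and 0.003 over all genes. At 24 h, mitochondrially encoded genes took between 1.20% and 1.30% of the counts in the control libraries and between 0.624% and 0.802% in the Arg libraries, and their part in these results was not tested.

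After 48 h of Arg treatment, 0 of the 9 genes passed edgeR's test at an adjusted p under 0.05, and 0 passed with DESeq2. Of all 14562 genes tested, 0.117% were called. At an unadjusted p under 0.05, PYCR1 was higher and ARG2, OAT and GATM were lower, which is 4 of 9 genes against 13.4% of all genes. The libraries of the groups did not overlap for 1 of the 9 genes, PYCR1, against 17.1% of all genes. The median log2 fold change was −0.07 over the 9 genes and 0.002 over all genes. Without control replicate B, 4 of the 9 genes passed the test, with ARG2 and OAT lower and ASS1 and PYCR1 higher, against 15.9% of all genes tested in that fit. With any other 1 of the 6 libraries left out, 0 passed. Control replicate B was singled out by its values in these same data, so its omission is not independent support. Without the filter on low counts 3 passed, ARG2, OAT and PYCR1, against 2.10% of all genes. The values of control replicate B lay inside the range of the Arg libraries for 5 of the 9 genes, and those of control replicates A and C for 1 each. Over all genes tested the same shares were 45.0% for replicate B, 36.1% for A and 35.1% for C.

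Between 24 and 48 h, ASS1 rose and ARG2 and ALDH18A1 fell both in control and in Arg-treated cells, and DDAH1 fell in control cells. This is 4 of the 9 genes in the control, where 19.9% of all 14449 genes tested were called, and 3 of the 9 with Arg, where 28.3% of all 14398 were called. The time comparisons use the same 12 libraries as the Arg comparisons, so each group enters 2 of these 4 results. The libraries of the 2 times did not overlap for 5 of the 9 genes in the control and for 4 of the 9 with Arg, against 39.0% and 42.2% of all genes. The summed fibroblast markers were also higher at 48 h in both conditions, although COL1A2, COL3A1, THY1 and PDGFRA were at or near 0. For Arg at 24 h, 1 of the 4 tested fibroblast markers was called lower. DCN averaged 31.7 CPM in the control and 19.5 CPM with Arg at that time. Of 3 endothelial markers tested for time, 1 was called higher in the control and 2 with Arg. In the control KDR went from 1.51 to 3.63 CPM, while ERG went the other way, from 4.26 to 3.30 CPM. The 6 immune markers summed to between 6.08 and 8.61 CPM in the control and between 10.9 and 13.5 CPM with Arg at 24 h. At 48 h they summed to between 19.9 and 25.9 CPM over both groups, mostly from CSF1R. LYZ was at 0 and PTPRC, ITGAM and CD3E were near 0. CD14 went the other way. It averaged 2.82 CPM in the control and 1.52 CPM with Arg at 24 h, and 2.44 and 1.17 CPM at 48 h. The part of these markers in the time results, and in the Arg results at 24 h, was not tested. In bulk RNA, fewer cells of a kind and less RNA per cell cannot be told apart.

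**Figure D2:**
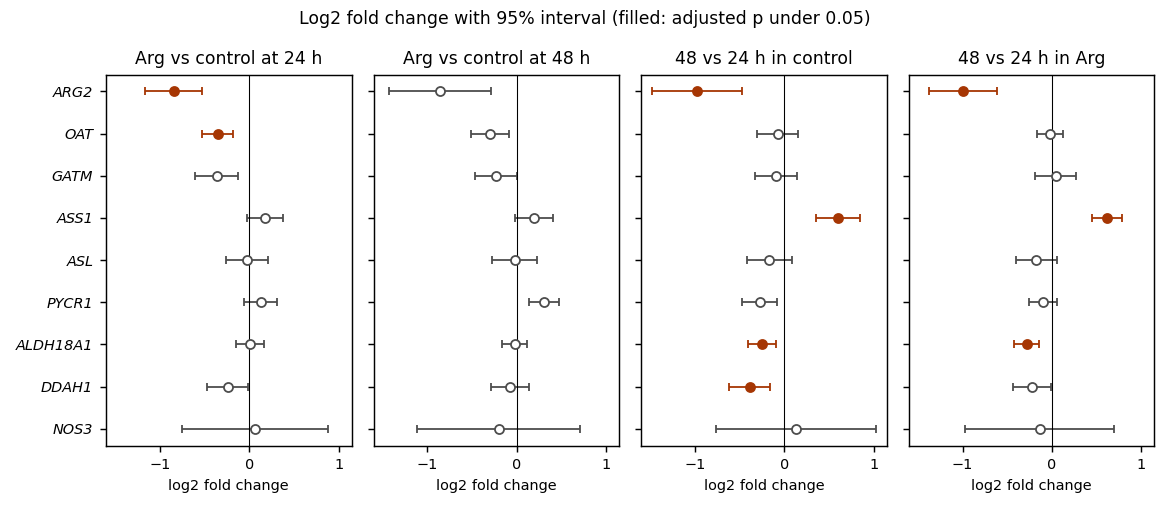
Log2 fold change of each tested gene with its 95% confidence interval in the Arg comparisons and the time comparisons. Filled points have an adjusted p under 0.05: ARG2 and OAT lie below 0 for Arg at 24 h, ASS1 lies above 0 and ARG2 and ALDH18A1 below 0 in both time comparisons, and DDAH1 lies below 0 with time in the control.

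Arginase was represented by ARG2 alone. ARG1, the cytosolic arginase of liver (ENSG00000118520, chromosome 6 of GRCh38, 131573144 to 131584332), had 0 of 217506607 counts, which allows up to 0.0138 CPM over all libraries (3 counts) and between 0.158 and 0.181 in a single library. These limits cover counting error only. ARG1 overlaps MED23 on the opposite strand over most of its length, and MED23 had 6670 counts.

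ARG2 (ENSG00000081181, chromosome 14, 67619798 to 67651720, plus strand) is the arginase of mitochondria. In control cells at 24 h its level was 24.2, 18.4 and 19.9 CPM in replicates A, B and C, a mean of 20.8 ± 2.98 CPM (SD, n = 3). In Arg-treated cells at 24 h it was 14.0, 10.1 and 10.7 CPM, a mean of 11.6 ± 2.07 CPM. All 3 Arg libraries were below all 3 control libraries. In edgeR's test its log2 fold change was −0.84, with a standard error of 0.15, a 95% confidence interval from −1.16 to −0.52 and an adjusted p of 0.00302. ARG2 was called whichever 1 of the 6 libraries was omitted, and its log2 fold change was then at most −0.72.
At the later time, ARG2 was at 12.2, 6.17 and 13.4 CPM in the control and at 6.41, 4.47 and 6.56 CPM with Arg. Control replicates A and C were above the Arg libraries, and replicate B was within their range. Its log2 fold change was −0.86 (interval −1.44 to −0.29, standard error 0.26), and the adjusted p of 0.211 from edgeR's test did not pass. Without control replicate B it was −1.13, with an adjusted p of 9.57e-05 from the same test. With any other library left out ARG2 was not called, at adjusted p-values up to 0.656 in that test.
With time, ARG2 fell by 49.1% in the control (log2 fold change −0.98 ± 0.23 SE, adjusted p = 0.0136 from edgeR's test) and fell by 49.8% with Arg (−0.99 ± 0.18 SE, adjusted p = 0.000434). The call in the control was lost without control replicate A at 24 h (adjusted p = 0.0792) or replicate C at 24 h (adjusted p = 0.0511). The call with Arg held with each library left out. ARG2 had 2652 counts in all and overlaps VTI1B on the opposite strand, which had 12078 counts. Whether the counting used the strand is not given in the sources used here, so reads in the overlap may be of either gene. VTI1B had log2 fold changes of −0.12 and 0.09 for Arg at 24 and 48 h, neither of which passed the test, and fell by 0.29 on the log2 scale with time in the control (adjusted p = 0.0483).

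OAT (ENSG00000065154, chromosome 10, 124397303 to 124418976, minus strand) encodes the mitochondrial ornithine aminotransferase. At 24 h, its level was 235.3, 234.9 and 210.8 CPM in the control and 191.2, 169.0 and 172.9 CPM with Arg. The groups did not overlap, and the means were 227.0 ± 14.1 and 177.7 ± 11.9 CPM (SD, n = 3). OAT had a log2 fold change of −0.35 ± 0.08 (SE), with an adjusted p of 0.0135 from edgeR's test. This call rested on single libraries: it was lost without control replicate A (adjusted p = 0.0820), Arg replicate B (0.0842) or Arg replicate C (0.0866), at log2 fold changes between −0.34 and −0.32.
At 48 h, OAT was at 234.3, 174.7 and 235.1 CPM in the control and at 170.0, 180.2 and 174.7 CPM with Arg. Control replicates A and C stayed above every Arg library, and replicate B was among them. This gave a log2 fold change of −0.30 ± 0.10 (SE, interval −0.51 to −0.08, adjusted p = 0.233 from edgeR's test), and without control replicate B it was −0.43 (adjusted p = 1.32e-05). With any other library left out OAT was not called at 48 h, at adjusted p-values up to 0.690 in edgeR's test. Between the times OAT did not pass the test in the control (log2 fold change −0.08, interval −0.31 to 0.16) or with Arg (−0.02, interval −0.17 to 0.12). OAT has 15 pseudogenes in the table by name, and these had 8 counts together.

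ALDH18A1 (ENSG00000059573, chromosome 10, 95605929 to 95656706, minus strand) encodes the synthase that makes the proline precursor from glutamate. It was at 160.0, 157.0 and 168.7 CPM in the control and at 166.0, 162.4 and 160.4 CPM with Arg at 24 h. Its level at 48 h was 139.0, 132.2 and 135.3 CPM in the control and 126.1, 136.6 and 138.4 CPM with Arg. Every library at 48 h was below every library at 24 h, whereas the Arg and control libraries overlapped at both times. With time, ALDH18A1 fell by 16.1% in the control (log2 fold change −0.25 ± 0.07 SE, adjusted p = 0.0276 from edgeR's test) and fell by 17.9% with Arg (−0.28 ± 0.07 SE, adjusted p = 0.00376). The call in the control was lost when 1 of control replicates A and C at 24 h or A and C at 48 h was omitted, with adjusted p-values between 0.0663 and 0.112, and with scaling by library size only (0.0683). For Arg the log2 fold change was 0.01 at 24 h (interval −0.15 to 0.17) and −0.02 at 48 h (interval −0.16 to 0.12), the narrowest of the 9 genes at 48 h.

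PYCR1 (ENSG00000183010, chromosome 17, 81932384 to 81942412, minus strand) encodes a mitochondrial reductase that completes proline synthesis. At 24 h it was at 98.4, 82.7 and 90.8 CPM in the control and at 95.2, 104.4 and 97.6 CPM with Arg, and the groups overlapped. Levels at 48 h were 78.7, 77.0 and 68.1 CPM in the control and 95.6, 88.9 and 91.6 CPM with Arg. Here every Arg library was above every control library, with means of 92.1 ± 3.37 and 74.6 ± 5.70 CPM (SD, n = 3). Arg gave a log2 fold change of 0.13 at 24 h (interval −0.06 to 0.31, adjusted p = 0.420 from edgeR's test). It was 0.30 at 48 h (SE 0.08, interval 0.14 to 0.47), with an unadjusted p of 0.00182 and an adjusted p of 0.157 from edgeR's test. Without control replicate B at 48 h, the log2 fold change was 0.33 and the adjusted p was 0.00347. With any other library left out PYCR1 was not called at 48 h, at adjusted p-values up to 0.594 in edgeR's test.
With time, PYCR1 had a log2 fold change of −0.28 in the control (interval −0.48 to −0.08, adjusted p = 0.0511) and of −0.10 with Arg (interval −0.26 to 0.05, adjusted p = 0.316). The first of these was just outside the threshold in edgeR's test and passed it under 5 of the 7 alternatives that kept all libraries, DESeq2 among them (adjusted p = 0.0380), and in edgeR without control replicate B at 48 h (0.0453) or at 24 h (0.0224).

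**Figure D3:**
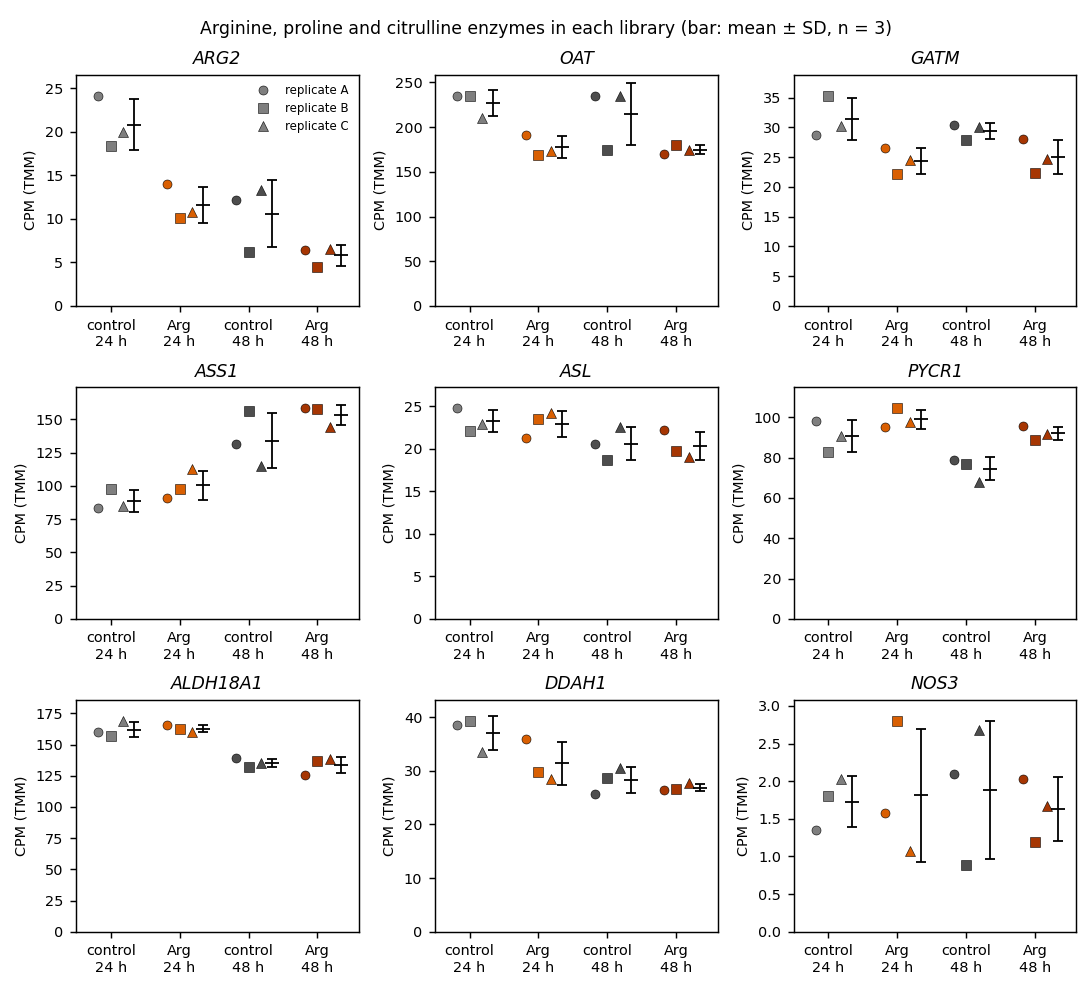
Level of the 9 detected genes in each library (CPM after TMM normalization, axes from 0), with the mean ± SD of each group of 3 beside its points. ARG2 and OAT are lower with Arg at 24 h in all 3 libraries, and control replicate B at 48 h (dark square) lies with the Arg libraries for ARG2, OAT and ASS1.

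ASS1 (ENSG00000130707, chromosome 9, 130444929 to 130501274, plus strand) encodes argininosuccinate synthase, which joins citrulline with aspartate. At 24 h it was at 83.3, 97.9 and 84.6 CPM in the control and at 90.8, 97.8 and 112.5 CPM with Arg. By 48 h it stood at 131.4, 156.2 and 114.6 CPM in the control and at 158.3, 157.6 and 144.6 CPM with Arg. All libraries at 48 h were above all libraries at 24 h. With time, ASS1 rose 1.52-fold in the control (log2 fold change 0.60 ± 0.11 SE, adjusted p = 0.00505 from edgeR's test) and 1.53-fold with Arg (0.61 ± 0.08 SE, adjusted p = 1.49e-05). Both calls held with each library left out in turn, at log2 fold changes between 0.48 and 0.70 in the control and between 0.54 and 0.70 with Arg.
For Arg treatment the groups of ASS1 overlapped at both times. It had a log2 fold change of 0.18 at 24 h (interval −0.02 to 0.38, adjusted p = 0.281) and of 0.19 at 48 h (interval −0.02 to 0.41, adjusted p = 0.418), and without control replicate B at 48 h it was 0.32 (adjusted p = 0.00248 from edgeR's test). With any other library left out ASS1 was not called at 48 h, at adjusted p-values up to 0.870 in that test. Pseudogenes named for ASS1 numbered 15 in the table and held 1111 counts, 4.28% of the 25966 counts of ASS1, so its level is uncertain by reads shared with near-identical copies.

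ASL (ENSG00000126522, chromosome 7, 66075798 to 66093558, plus strand) encodes argininosuccinate lyase, which completes the return to arginine. It was at 24.8, 22.1 and 22.9 CPM in the control and 21.2, 23.5 and 24.2 CPM with Arg at 24 h. Values at 48 h were 20.6, 18.7 and 22.5 CPM in the control and 22.2, 19.7 and 19.1 CPM with Arg. The groups overlapped in every comparison. For Arg its log2 fold change was −0.02 at both times, with intervals of −0.26 to 0.21 at 24 h and −0.27 to 0.23 at 48 h. Over time the log2 fold change was −0.17 in both conditions, with intervals of −0.42 to 0.08 in the control and −0.40 to 0.05 with Arg.
The genes of this pair therefore stood in a different proportion at the 2 times. Per kilobase, ASS1 was 4.01 ± 0.57 times ASL in the control at 24 h and 6.92 ± 1.72 times at 48 h (SD, n = 3). With Arg the ratio was 4.57 ± 0.27 at 24 h and 7.94 ± 0.45 at 48 h. The lowest ratio at 48 h, 5.33, was above the highest at 24 h, 4.87.

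NOS3 (ENSG00000164867, chromosome 7, 150990995 to 151014588, plus strand) encodes the endothelial nitric oxide synthase and had only 383 counts over the 12 libraries. It was at 1.35, 1.81 and 2.03 CPM in the control and 1.57, 2.80 and 1.07 CPM with Arg at 24 h. Values at 48 h were 2.10, 0.882 and 2.68 CPM in the control and 2.03, 1.19 and 1.67 CPM with Arg. No order of the groups appears, and the counts per library lay between 17 and 50. The log2 fold change for Arg was 0.06 at 24 h (interval −0.75 to 0.88) and −0.20 at 48 h (interval −1.11 to 0.71), so smaller changes were not detectable at this depth. NOS3 overlaps ATG9B on the opposite strand, which had 1019 counts, so part of these reads may belong to that gene.

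DDAH1 (ENSG00000153904, chromosome 1, 85318481 to 85578363, minus strand) encodes a hydrolase of methylated arginines. At 24 h it was at 38.6, 39.3 and 33.5 CPM in the control and at 35.9, 29.9 and 28.4 CPM with Arg. Later, at 48 h, it was at 25.7, 28.7 and 30.5 CPM in the control and at 26.4, 26.6 and 27.7 CPM with Arg. Both 48 h groups lay below the 24 h group of the same condition, although the Arg and control libraries overlapped at each time. With time, DDAH1 fell by 23.7% in the control (log2 fold change −0.39 ± 0.11 SE, adjusted p = 0.0256 from edgeR's test). With Arg the log2 fold change was −0.22 (interval −0.44 to −0.01, adjusted p = 0.115). The call in the control was lost without control replicate A at 24 h (0.110), B at 24 h (0.0553) or A at 48 h (0.0981), and with scaling by library size only (0.0556). For Arg the log2 fold change was −0.24 at 24 h (interval −0.48 to −0.01, adjusted p = 0.200) and −0.07 at 48 h (interval −0.29 to 0.14).

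GATM (ENSG00000171766, chromosome 15, 45361124 to 45402327, minus strand) encodes the amidinotransferase that starts creatine synthesis. At 24 h it was at 28.8, 35.4 and 30.2 CPM in the control and at 26.5, 22.1 and 24.6 CPM with Arg. The groups did not overlap, but the log2 fold change of −0.37 (SE 0.11, interval −0.60 to −0.13) had an adjusted p of 0.0617 in edgeR's test. It passed without Arg replicate A (adjusted p = 0.0448) and without the filter on low counts (0.0429). At 48 h it was at 30.4, 27.9 and 30.1 CPM in the control and at 28.0, 22.4 and 24.8 CPM with Arg. Control replicate B was just below Arg replicate A, and the log2 fold change was −0.23 (interval −0.47 to −0.002, adjusted p = 0.367). Between the times it was −0.09 in the control (interval −0.33 to 0.14) and 0.04 with Arg (interval −0.19 to 0.27).

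The Arg effect at 48 h was compared with that at 24 h in a model of all 12 libraries with an interaction term. With edgeR's test, 0 of the 9 genes were called at an adjusted p under 0.05 and 0 at an unadjusted p under 0.05, and DESeq2 also called 0, against 0.0132% and 6.87% of all 15148 genes in edgeR's test. The smallest p was that of PYCR1, whose log2 fold change for Arg was larger at 48 h by 0.18 (interval −0.07 to 0.42, adjusted p = 0.825). For ARG2 the effects at the 2 times differed by −0.02 on the log2 scale (interval −0.66 to 0.63), and for OAT by 0.06 (interval −0.22 to 0.33). The calls at 24 h and their lack at 48 h are thus not shown to be different effects, and the interval of ARG2 is wide.

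The proportions of 2 further pairs of genes also differed between groups. Per kilobase, ASS1 was 3.44 ± 0.74 times ARG2 in the control at 24 h and 7.03 ± 1.67 times with Arg at 24 h (SD, n = 3), and these libraries did not overlap. At 48 h the ratio was 11.8 ± 7.21 in the control and 21.7 ± 5.56 with Arg. Control replicate B had the ratio 20.1, the highest of its group and inside the range of the Arg libraries, 17.5 to 28.0. OAT was 2.14 ± 0.24 times PYCR1 in the control and 1.53 ± 0.17 times with Arg at 24 h. At 48 h it was 2.47 ± 0.51 times in the control and 1.62 ± 0.11 times with Arg. For this ratio the Arg and control libraries did not overlap at either time, with 1.71 as the highest Arg value and 1.98 as the lowest control value at 24 h, and 1.73 and 1.93 at 48 h. These pairs were chosen after their values were seen and are given with no test.

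**Figure D4:**
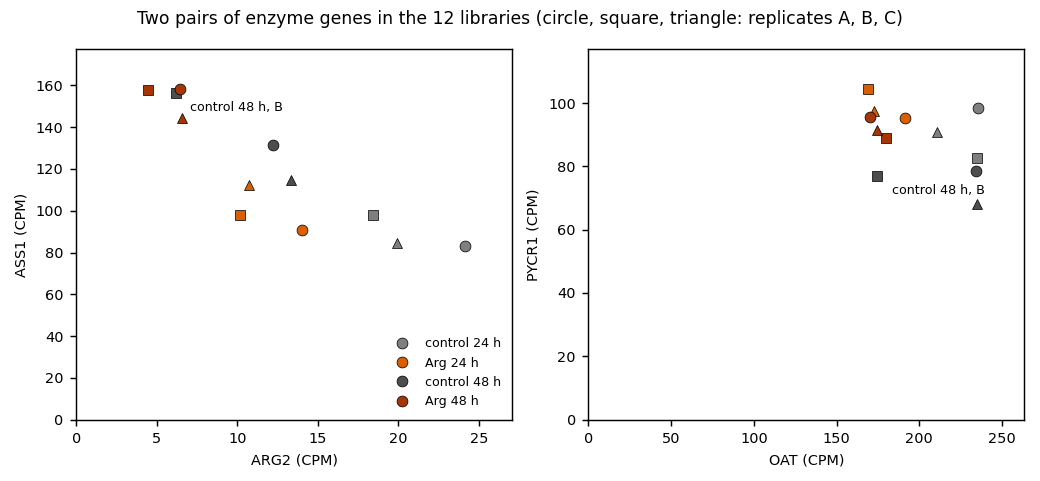
Level of ASS1 against ARG2 (left) and of PYCR1 against OAT (right) in the 12 libraries, in CPM with axes from 0. Control replicate B at 48 h lies with the Arg libraries of 48 h on the left, at 156.2 CPM of ASS1 and 6.17 CPM of ARG2, and apart from the other control libraries on the right.

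For each gene called in any comparison, the genes with the most similar pattern were sought among 15148 genes by Pearson correlation of log2 CPM over the 12 libraries, which come from the 4 groups. ASS1 was closest to LPIN3 (r = 0.992) and SSBP2 (0.987). ARG2 was closest to NOP14-AS1 (0.976), an antisense gene whose reads are uncertain without strand, and CENPV (0.974). OAT was closest to VRK1 (0.962) and PLS1 (0.958), ALDH18A1 to FGF2 (0.988) and MARS2 (0.986), and DDAH1 to PAPOLA (0.927) and UBE2J1 (0.923). These are descriptions, and they share libraries and depth.

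Other genes of arginine metabolism, and 22 genes of the response to amino acid deprivation, were followed in 8 lists with 75 genes in all. At 24 h of Arg, 66 were tested, of which 3 rose and 8 fell by the same rule of edgeR's test, with a median log2 fold change of −0.03. This compares with 6.63% of all genes called, and without Arg replicate C at 24 h 2 rose and 5 fell, against 2.60% of all genes. In the list for the urea cycle and citrulline, 2 of 5 genes were tested, and NAGS, whose product makes the activator of the first urea cycle enzyme, fell by 1.04 on the log2 scale (adjusted p = 0.0321). The other tested gene of that list did not pass. In the nitric oxide list, 1 of 10 fell, namely GCH1, the first enzyme of the cofactor tetrahydrobiopterin, from 19.3 ± 1.76 to 11.4 ± 2.57 CPM (SD, n = 3, log2 fold change −0.76, adjusted p = 0.00733).
In the list for creatine and agmatine, 2 of 8 fell. They were the creatine transporter SLC6A8, from 58.8 ± 8.72 to 39.7 ± 1.55 CPM (SD, n = 3, log2 fold change −0.57, adjusted p = 0.00388), and creatine kinase CKB, from 152.0 ± 15.9 to 103.9 ± 2.36 CPM (−0.55, adjusted p = 0.00101). In the list for proline and glutamate, 1 of 11 rose and 1 fell. P4HA1, a subunit of the enzyme that hydroxylates proline in collagen, fell by 0.67 on the log2 scale (adjusted p = 0.000552), and ALDH4A1, which oxidizes the proline precursor to glutamate, rose by 0.54 (adjusted p = 0.0459).
Among the arginine transporters, 2 of 6 fell. SLC7A2, a carrier of cationic amino acids, went from 70.3 ± 17.0 to 26.5 ± 2.73 CPM (SD, n = 3, log2 fold change −1.41, adjusted p = 1.27e-05), and SLC7A6 fell by 0.37 on the log2 scale (adjusted p = 0.0215). In the list for the response to amino acid deprivation, 2 of 22 rose and 1 fell. The stress factor ATF3 fell by 1.39 on the log2 scale (adjusted p = 0.000464), while STC2 rose by 0.62 (adjusted p = 0.00203) and the cystine carrier SLC7A11 rose by 0.57 (adjusted p = 0.00474). At an unadjusted p under 0.05 in edgeR's test, 7 of these 22 were higher and 2 lower. Over the 8 lists 9 were higher and 14 lower, against 1548 and 1705 of all 14279 genes. None of the 4 tested peptidylarginine deiminases and none of the 3 genes of arginine charging and transfer were called, and their smallest p-values were those of PADI2 (log2 fold change −0.27, adjusted p = 0.636) and ATE1 (−0.27, adjusted p = 0.125).

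At 48 h of Arg, 0 of the 65 tested genes of the 8 lists passed edgeR's test at an adjusted p under 0.05. At an unadjusted p under 0.05, 3 were higher and 16 were lower, against 5.94% and 7.49% of all genes. DESeq2 called 1 higher and 1 lower. Without control replicate B, 5 of 66 rose and 18 fell, against 15.9% of all genes. With any other library left out, 0 genes of the lists passed. Without the filter on low counts 1 of 71 rose and 7 fell, against 2.10%. The median log2 fold change was −0.08 over the 65 genes. The gene with the smallest p in its list was PADI4 (log2 fold change −0.87), SLC7A2 (−0.93), DDIT4 (−0.63), SLC6A8 (−0.42), NOS2 (−0.91), RARS2 (0.20), P4HA1 (−0.22) and NAGS (−0.14), with adjusted p-values from 0.148 for PADI4, SLC7A2 and DDIT4 to 0.909 for NAGS.

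**Figure D5:**
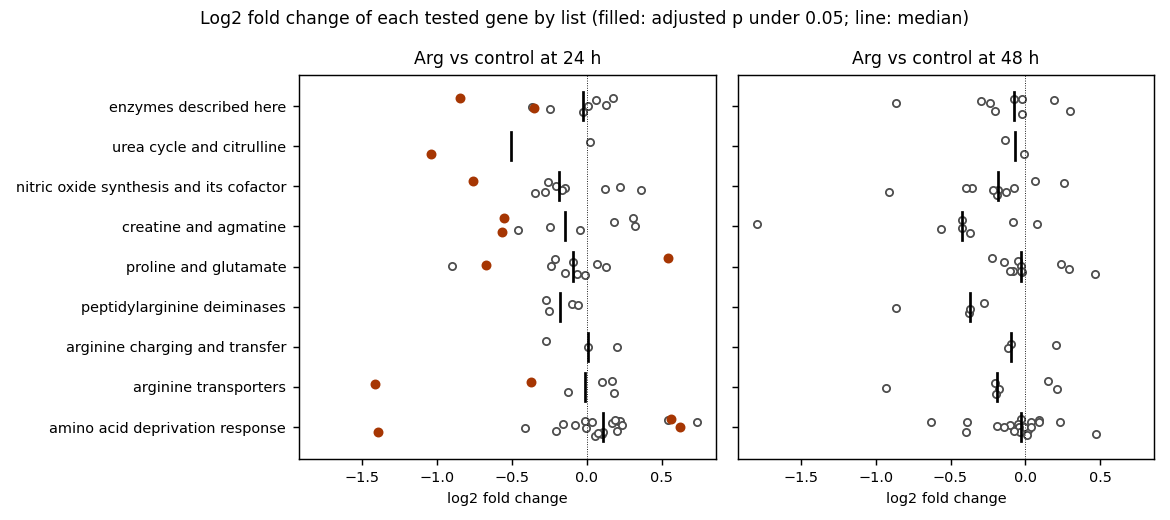
Log2 fold change of each tested gene by list for Arg at 24 h (left) and 48 h (right), with filled points at an adjusted p under 0.05 and a line at the list's median. At 24 h, 3 genes of the 8 lists are filled above 0 and 8 below 0, and at 48 h none is filled.

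With time in the control, 11 of the 66 tested genes of these lists rose and 13 fell, and with Arg 13 of 65 rose and 15 fell, against 19.9% and 28.3% of all genes called. In the control, 7 rose and 1 fell without replicate A at 24 h (5.59% of all genes), 7 rose and 4 fell without replicate C at 24 h (6.70%), and 12 rose and 8 fell without replicate B at 48 h (16.4%). With Arg, 8 rose and 9 fell without replicate B at 48 h (19.8%). In the list for proline and glutamate, 2 rose and 3 fell in the control, and 4 rose and 2 fell with Arg. PYCR3, the cytosolic counterpart of PYCR1, fell by 0.46 on the log2 scale in the control (adjusted p = 0.0165) and fell by 0.54 with Arg (adjusted p = 9.94e-05), and glutamine synthetase GLUL rose by 0.46 (adjusted p = 0.0188) and 0.53 (adjusted p = 1.18e-05). PRODH, which starts the breakdown of proline, rose by 1.65 with Arg (adjusted p = 0.0145), at a mean level under 2 CPM.
Of the peptidylarginine deiminases, which turn arginine within proteins into citrulline, 2 of 4 rose in each condition. PADI4 rose by 2.48 on the log2 scale in the control and 1.86 with Arg, and PADI3 by 1.23 and 0.92, with adjusted p-values between 0.000318 and 0.00186. Among the transporters, SLC7A7 rose by 0.89 in the control (adjusted p = 0.00748) and by 0.81 with Arg (adjusted p = 0.00103). SLC7A2 fell by 1.02 (adjusted p = 0.0142) and fell by 0.54 with Arg (adjusted p = 0.00159), and with Arg SLC7A1 rose by 0.36 (adjusted p = 0.000366) and SLC3A2 fell by 0.48 (adjusted p = 2.40e-05), so that 1 rose and 1 fell in the control and 2 rose and 2 fell with Arg.
In the nitric oxide list, 3 of 10 fell in the control, and 1 of 10 rose and 4 fell with Arg. QDPR, which regenerates the cofactor, fell by 0.62 in the control (adjusted p = 0.00315) and fell by 0.68 with Arg (adjusted p = 1.81e-05). In the creatine and agmatine list, SLC6A8 and AGMAT fell in both conditions and CKB fell with Arg, with log2 fold changes between −0.80 and −0.29. The deprivation list had 6 of 22 genes higher and 2 lower in the control, and 4 higher and 3 lower with Arg, led by NUPR1, a stress-induced nuclear protein, with log2 fold changes of 2.21 and 2.13. ATE1, which attaches arginine to proteins, fell by 0.47 in the control (adjusted p = 0.00907) and fell by 0.29 with Arg (adjusted p = 0.0307), and NAGS fell by 1.29 in the control (adjusted p = 0.0248). For the interaction, 0 of the 67 tested genes of the lists passed edgeR's test at an adjusted p under 0.05. Of all genes, 0.0132% passed. DESeq2 called 1, against 0.099% of all genes. Without control replicate B at 48 h, 2 were lower (0.297% of all genes), and without control replicate B at 24 h, 1 was higher (0.0642%). Without the filter on low counts 1 was higher and 2 were lower (0.295%). At an unadjusted p under 0.05 in edgeR's test, 2 were higher and 9 lower, against 464 and 576 of all 15148 genes. The deprivation list held 1 of the 2 and 7 of the 9.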

How the data were processed

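RNA from 12 samples of TIGK cells was sequenced by the authors as poly(A) libraries with paired ends. The authors filtered the reads with fastp, mapped them with STAR to GRCh38/hg38 and counted them per gene with featureCounts. The deposited counts are raw whole numbers with gene coordinates and exonic lengths. Tool versions, the annotation release and the strand setting are not given in the sources used here. Every count column entered the analysis.

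Groups (treatment and time) come from the labels. Pairs of groups were compared in edgeR 4.0.16 (R 4.3.3) by the quasi-likelihood test, after filterByExpr and TMM scaling and with no block, and Benjamini-Hochberg adjustment covered all genes tested. An interaction of treatment and time was fitted on all 12 libraries. A gene was called at an adjusted p under 0.05. The standard error is the absolute log2 fold change divided by the square root of F. CPM values use TMM factors over the 12 libraries, and CPM per kb divides them by the exonic length. An exact permutation test of 1 gene in groups of 3 cannot give a p below 0.1.

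The members and lists were chosen with earlier results of these data known. Named were the 10 genes, at most 5 called genes of each list with the largest absolute log2 fold change per comparison or else the gene with the smallest p, and, for each called member, the 2 genes with the highest correlation (log2 CPM with a prior count of 2). Markers were of keratinocytes, endothelium, fibroblasts, immune cells and melanocytes. The 4 melanocyte markers summed to between 1.03 and 3.06 CPM. Replicates were compared before averaging, and none differed by as little as sampling noise. Alternatives were DESeq2 1.42.0, the DESeq2 size factors within edgeR, scaling by library size only, no filter, at least 10 counts in every library, 1 model of all libraries, the replicate block, and the omission of single libraries. Counts over all genes and the lists under these alternatives were added after seeing the data. Each script with a test across genes was checked on simulated data.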

Additional observations from a re-analysis of the deposited data

How the results depend on the processing

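For Arg at 24 h, 2 genes were called under each alternative that kept all libraries except without the filter on low counts, which also called GATM, and between 1 and 3 with each library left out. At 48 h, 0 were called except without the filter on low counts (3 genes: ARG2, OAT and PYCR1), with the replicate block (1) and with libraries left out (between 0 and 4, the 4 without control replicate B). With time in the control, library size only left 2 of the 4 calls, 5 alternatives added PYCR1, and leaving out each library gave between 1 and 5. With time in Arg, 3 genes were called under every alternative run. For the interaction, 0 were called throughout. The shares of all genes called moved as well. With a library left out they ran from 2.45% to 10.4% for Arg at 24 h and from 0.0404% to 15.9% at 48 h. At 48 h they were 2.10% without the filter and 1.26% with the block. For time in the control they ran from 5.59% to 22.2% with a library left out. With the 5 alternatives that added PYCR1 they ran from 12.4% to 28%. For time in Arg they ran from 14.9% to 31.1% over all alternatives. Why these counts moved was not tested.

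The letters A, B and C were checked for pairing. Deviations of same-lettered libraries correlated between −0.0563 and 0.154, and in no comparison above 0.1 for every letter. With 3 libraries per group, this check cannot show whether same-lettered libraries were handled together. The replicate block raised the share of all genes called from 19.9% to 28% for time in the control and from 0.117% to 1.26% for Arg at 48 h. It lowered the share from 28.3% to 26.2% for time in Arg and from 6.63% to 6.47% for Arg at 24 h. With the replicate block, ARG2 at 48 h was called (log2 fold change −0.83, adjusted p = 0.0343), PYCR1 with time in the control was called (adjusted p = 0.0159, making 5 genes), and no other call changed.

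Signs turned only for values that had not passed the test. With library size only, OAT with time in Arg was 0.035 on the log2 scale. The interaction of ASL was 0.0038 with DESeq2, 0.0034 with its size factors and 0.00015 without the filter, and that of ARG2 was 0.0076 with the replicate block. With libraries left out, log2 fold changes for Arg at 24 h ran from −0.017 to 0.034 for ALDH18A1, −0.061 to 0.028 for ASL and −0.39 to 0.33 for NOS3. At 48 h they ran from −0.045 to 0.016 for ALDH18A1, −0.095 to 0.043 for ASL and −0.54 to 0.13 for NOS3. With time in the control they ran from −0.15 to 0.050 for OAT and −0.21 to 0.47 for NOS3, and in Arg from −0.056 to 0.032 for OAT, −0.052 to 0.12 for GATM and −0.41 to 0.31 for NOS3. Interactions ran from −0.071 to 0.13 for OAT, −0.058 to 0.012 for ALDH18A1, −0.086 to 0.14 for ASS1, −0.070 to 0.067 for ASL, −0.29 to 0.18 for ARG2 and −0.61 to 0.18 for NOS3. Depth limits NOS3, with 17 to 50 counts per library, more than the other detected genes.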
